A study of Mus musculus with 24 samples.

Results

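Mouse embryonic stem cells (ESCs) in culture were compared with the pregastrulation epiblast of the embryo, gene by gene, on arrays made from PCR-amplified cDNA. The comparison takes the 2 ESC and 2 epiblast arrays made this way, 4 of the 24 arrays of the series, and it was chosen by sample label. All 4 samples are of strain C57BL/6. The ESCs were kept free of feeder cells in 2i+LIF, a medium with inhibitors of the kinases MEK and GSK3 and with leukaemia inhibitory factor (LIF). The epiblast is the pluripotent tissue of the embryo at embryonic day 5.5 to 6.0 and was taken as the tissue that induced epiblast-like cells (EpiLCs) were meant to match. How it was dissected, whether embryos were pooled and the sex of cells and embryos were not given in the sources used here. Each sample started from 5 ng of total RNA, about 500 cells' worth, and went through 22 PCR cycles before labelling. Replicates are labelled biological, but separate cultures or litters are not stated, so p-values measure only the spread between the replicate arrays that were fitted.

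ESCs in 2i+LIF represent naive pluripotency, the state of the epiblast before implantation. After implantation the epiblast becomes a polarised epithelium that keeps Oct4, switches off the naive transcription factors and is exposed to FGF, Nodal, WNT and BMP signals from itself and from its neighbours, the visceral endoderm and the extraembryonic ectoderm. It is the source of the germ layers and, in its proximal part, of the germ cells.

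A deposited value is the intensity of a probe set on a linear scale. Values under 4.2, the 10th percentile of the whole table, were raised to that floor, and a gene was tested where at least 2 of the 12 amplified arrays exceeded 24, the 40th percentile of those arrays, called the filter level below. Differences are log2 of ESCs minus epiblast ± standard error, with n = 2 arrays per group, and a gene was called where the Benjamini-Hochberg adjusted p was under 0.05 and the difference at least 1 in size. The standard error and p rest on the spread within the 6 groups of all 12 amplified arrays. Scatter in groups other than ESCs and epiblast therefore enters them. For a gene whose lower group fell under the filter level, the filter level stood in for that group and the fold is written as "at least". Medians of the amplified arrays spanned 0.15 on the log2 scale, and precision is limited by how few arrays there are. Replicates correlated across genes with r = 0.972 in ESCs and 0.969 in the epiblast, and genes are not independent replicates. Control probe sets at both ends of Actb show how far the cDNA reaches from the 3′ end, and their 5′/3′ ratio was 0.0593 and 0.0503 on the ESC arrays and 0.0704 and 0.157 on the epiblast arrays, and that of Gapdh was 0.354 and 0.541 against 0.519 and 0.982. The part of this difference in the results was not tested.

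ESCs and epiblast differed widely, and in both directions. Of 15608 genes tested, 1844 (11.8%) were called, 1036 (6.64%) higher and 808 (5.18%) lower in ESCs, and 3770 had an unadjusted p under 0.05. The difference was at least 3 in size for 234 genes higher and 163 lower, and at least 5 for 42 and 27. Among genes called higher in ESCs, 284 had an epiblast mean below the filter level, and among those called lower 297 had an ESC mean below it. Over all tested genes the median difference was 0.01 and the median size 0.40. The root mean square log2 difference between an ESC and an epiblast array was 1.13 ± 0.04 (SD over 4 pairs of arrays), against 0.542 between the ESC replicates and 0.559 between the epiblast replicates. No ESC array overlapped an epiblast array in any of the 1844 called genes, nor in 57.6% of all tested genes, so separation of the arrays adds nothing to a call and is not repeated for called genes below. Leaving out 1 of the 4 arrays lowered the count: 1037 genes were called without ESC replicate 1, 1083 without ESC replicate 2, 1068 and 1035 without epiblast replicates 1 and 2. Arrays of unamplified RNA gave a reading of the same direction of development in other samples, ESCs against day 2 EpiLCs. Of 1802 called genes measured there, 1632 (90.6%) differed from ESCs in EpiLCs in the direction in which the epiblast differed, against 68.3% of all 14553 genes measured on both, and whether the ESC arrays of both kinds share RNA was not given in the sources used here.

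**Figure D1:**
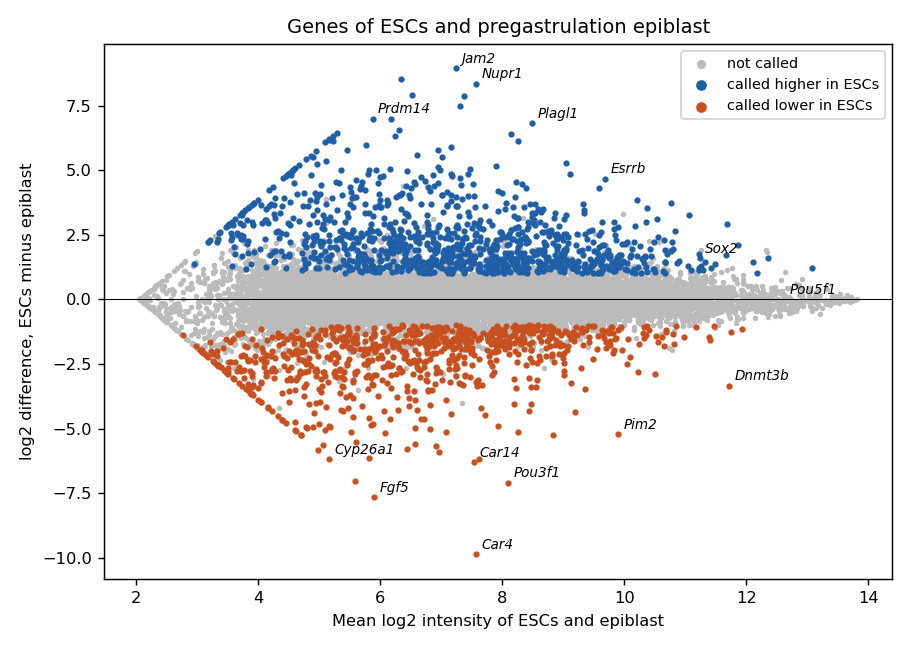
Each point is 1 of 15608 tested genes, with the mean log2 intensity of ESCs and epiblast on the x axis and the log2 difference of ESCs minus epiblast on the y axis. Blue points are the 1036 genes called higher and orange points the 808 called lower in ESCs, and the straight diagonal edges on the left are genes with 1 group at the floor.

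The largest differences reached from background to strong signal. Car4, which encodes a membrane-bound carbonic anhydrase, had intensities of 9.21 and 4.2 in ESCs and of 5175 and 6562 in the epiblast, at least 242-fold lower in ESCs (-9.87 ± 0.50, adjusted p = 6.9e-06). Its relative Car14 was at 19 and 23 against 1511 and 1801, at least 68.6-fold lower. Both carbonic anhydrase genes were thus near background on every ESC array and strong on every epiblast array. Jam2, an adhesion molecule of tight junctions, led the other direction with 2791 and 4035 in ESCs against 4.2 and 11.1 in the epiblast, at least 140-fold higher (8.94 ± 0.42, adjusted p = 5e-06). Mymx, whose product is known for myoblast fusion, was at 1577 and 1536 in ESCs and at the floor on both epiblast arrays. Calcoco2, which encodes an autophagy receptor, was at 1734 and 1181 against 4.2 and 8.41, and Morc1, known for silencing transposons in germ cells, at 2446 and 2758 against 29.1 and 32.8. The 12 largest increases also held Nupr1, Plagl1, Acsbg3, Ahnak and the naive factors Tfcp2l1, Klf2, Prdm14 and Nr5a2. Among the 12 largest decreases were Fgf5, Pou3f1, Cyp26a1 and Apoa1, together with Tmem54, Slc35d3, Tmem59l, Vrtn and Cmtm8, which lay at 4.2 to 17 on the ESC arrays and at 224 to 895 on the epiblast arrays. Slc16a3, a lactate transporter, was at 62.2 and 4.2 against 1297 and 723, and its call was lost without ESC replicate 2 or either epiblast array.

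All 16 listed genes of naive pluripotency were tested and all 16 were called higher in ESCs, beside 6.64% of all genes. Their median difference was 4.36, 3.62 with low values raised to the filter level and 2.90 with the mean of all probe sets. In each of those alternatives 15 of the 16 were called. Members of this and of the other lists were chosen with earlier results of these data known, so such counts describe the lists. Tfcp2l1, a transcription factor downstream of LIF, was at 2195 and 2995 in ESCs and at 7.51 and 15.7 in the epiblast, at least 107-fold higher (7.88 ± 0.47, adjusted p = 1.4e-05). Its smallest log2 difference over the alternative ways of processing was 2.41. Prdm14, a repressor of differentiation genes and a founder of the germ line, was at 635 and 691 against 4.2 and 6.53, at least 27.6-fold higher. Klf4 was at 322 and 329 against 4.72 and 7.44, at least 13.6-fold higher. The orphan receptor gene Nr5a2 had 750 and 884 against 4.2 and 9.94, and Klf2, a factor that sustains ESCs under MEK inhibition, 2238 and 1997 against 16.3 and 8.77. These 5 genes lay below the filter level on both epiblast arrays. A second set was still well above it in the embryo. Esrrb, a nuclear receptor of the naive network, was at 3928 and 4437 in ESCs and at 171 and 156 in the epiblast, 25.6-fold higher. Nanog, the homeodomain factor that guards the naive state, was at 3162 and 2993 against 424 and 440, 7.12-fold higher (2.83 ± 0.35, adjusted p = 0.00073). Zfp42 (Rex1) had 2253 and 2190 against 308 and 260, and Dppa3 (Stella) 991 and 780 against 182 and 141. The smallest of the 16 differences was that of the growth factor gene Fgf4, 1734 and 1850 against 507 and 584 (1.72 ± 0.43). Its call and that of Gbx2, chosen for its stability after its values were seen, were lost in each of the 4 fits with 1 array fewer, and 14 genes of the list were called in each of these fits.

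Genes of the postimplantation epiblast ran the other way. Of 18 tested, out of 19 listed, 11 were called lower in ESCs (5.18% of all genes) and 0 higher, with a median difference of -2.89, or -2.49 with low values raised to the filter level. Fgf5, the growth factor gene that marks this tissue, was at the floor on both ESC arrays and at 824 and 872 in the epiblast, at least 35.3-fold lower in ESCs (-7.66 ± 0.30, adjusted p = 3.1e-06). Pou3f1 (Oct6), a POU factor that takes part in the neural bias of the epiblast, was at 27.7 and 19.8 against 3012 and 3382. Otx2, which directs Oct4 to postimplantation enhancers, was at 32.9 and 61.0 against 841 and 1183 (-4.48 ± 0.81), with a call that was lost without ESC replicate 1. The low ESC level of Otx2 was not seen on the unamplified arrays, where the same probe set had an ESC mean of 839. Day 2 EpiLCs differed from ESCs there by 1.02 (limma, adjusted p = 0.06). The cause of this gap between the 2 kinds of arrays was not tested. The kinase gene Pim2 had 169 and 145 against 4982 and 6785, and Sox3, a SoxB1 factor, 44.1 and 45.1 against 1682 and 1053. Of the 7 tested genes that were not called, Nodal had values of 299 and 110 in ESCs against 127 and 52.3, which overlapped, and Cdh2 (N-cadherin) 109 and 138 against 102 and 83.7. The counts were 8 without ESC replicate 1 and 9 without any 1 of the other arrays.

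**Figure D2:**
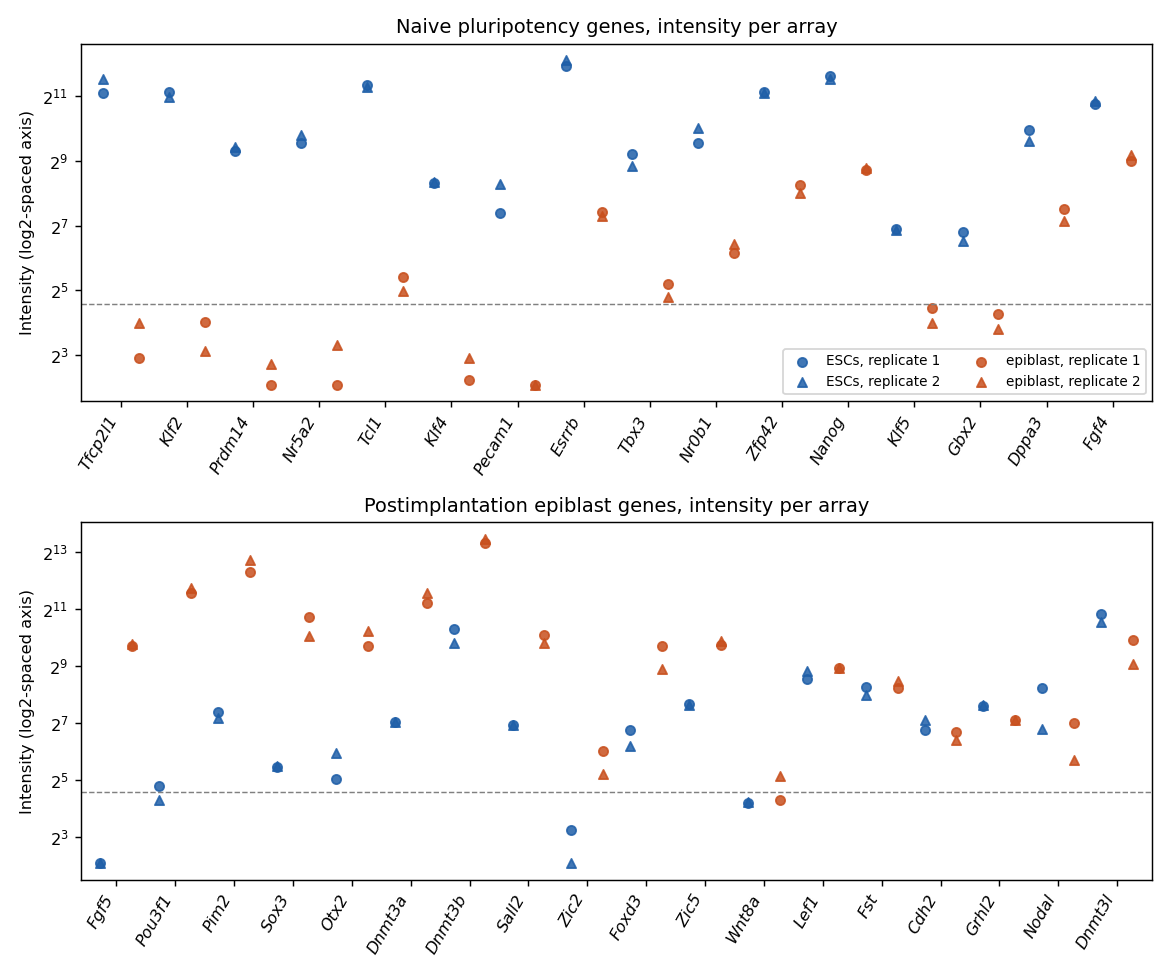
Intensity of naive (top) and postimplantation (bottom) genes on each of the 2 ESC and 2 epiblast arrays, on a log2-spaced axis, with the filter level of 24 as a dashed line and genes ordered by difference. All 16 naive genes are higher on both ESC arrays, and the first 11 postimplantation genes are lower on both.

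Factors held to be common to both states varied less. Of 12 core pluripotency genes, 2 were called higher in ESCs and 2 lower, with a median of -0.35. Pou5f1, the gene of Oct4, was at 5930 and 6658 in ESCs and at 5308 and 7640 in the epiblast, with overlapping arrays (-0.02 ± 0.26). Its partner Sox2 was at 4369 and 4015 against 1376 and 1404, 3.01-fold higher in ESCs (1.59 ± 0.28, adjusted p = 0.0043), and Dppa5a, an RNA-binding protein gene of early embryos, at 12165 and 14213 against 6451 and 4933. Lower in ESCs were Lin28a, an inhibitor of let-7 processing, at 324 and 196 against 1156 and 990, and the zinc finger gene Zfp281 at 571 and 432 against 954 and 1104. The ESC mean of Lin28a was 252 on the amplified arrays and 1258 on the unamplified arrays. Sox2 and Dppa5a were called without any 1 array, whereas Lin28a was lost without ESC replicate 2 or either epiblast array and Zfp281 without any 1 of the 4. The cadherin gene Cdh1 (E-cadherin) was at 4139 and 5398 against 3727 and 4454, with overlapping arrays (0.21 ± 0.30).

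The de novo DNA methyltransferases set methylation anew after implantation. Dnmt3a was at 130 and 129 in ESCs and at 2349 and 2982 in the epiblast, 20.4-fold lower in ESCs (-4.35 ± 0.30, adjusted p = 3e-05), and Dnmt3b at 1253 and 902 against 10282 and 11310, 10.1-fold lower. Their cofactor Dnmt3l was at 1828 and 1486 in ESCs and at 953 and 540 in the epiblast (1.20 ± 0.37, adjusted p = 0.066), not called here and called higher in ESCs with the replicate number as a block (adjusted p = 0.0286). The maintenance enzyme gene Dnmt1 had overlapping arrays, 1835 and 2388 against 1846 and 1908. Of the genes that read or oxidise methylcytosine, Tet2 was higher in ESCs, 207 and 157 against 22.8 and 13.6, with a call lost in each of the 4 fits with 1 array fewer, and Mbd2 was 3.72-fold higher, a call lost with the mean of its probe sets. In all, 2 of 10 tested genes of this list were called higher and 2 lower.

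Signalling genes were ordered by pathway. The counts of all lists stand beside 6.64% of all tested genes called higher in ESCs and 5.18% called lower. They describe lists that were chosen with earlier results of these data known. LIF acts through the receptor subunits Lifr and gp130 (Il6st) and the kinases of the Jak family on Stat3, and Socs3 is its feedback inhibitor. Of 18 tested genes of this pathway 10 were called higher in ESCs and 0 lower, with a median of 1.44. Called genes of this list include Tfcp2l1 and Klf4, which are also on the naive list, so the 2 lists are not separate counts. The receptor genes, chosen for their role after their values were seen, were at 971 and 1128 against 258 and 276 for Lifr and at 704 and 557 against 118 and 116 for Il6st. Stat3 itself was at 899 and 727 in ESCs and at 135 and 103 in the epiblast, 6.87-fold higher (2.78 ± 0.32, adjusted p = 0.0005). Socs3 was at 927 and 704 against 46.2 and 21.5, and Bcl3, an IκB family gene, at 450 and 379 against 16.8 and 9.31. Calls of these 5 genes held when any 1 array was left out, though that of Il6st was lost with the mean of its probe sets. The count was 9 without any 1 of the 4 arrays. Pim1, Socs1, Fos and Osmr, further targets or receptors, had differences of 0.03 to 0.31 and were not called. The letters TTCNNNGAA, a STAT half-site pair, were searched on both strands in the 250 bases before each annotated start of a gene. They were found for 1 of 16 matched genes of this list (Socs3), against 7.14% of all 12489 tested genes with a promoter sequence.

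FGF signals through ERK in the epiblast, and 2i blocks that step. Of 17 tested ERK targets 5 were called lower in ESCs (5.18% of all genes) and 0 higher (median -0.89). Myc was at 60.4 and 65.1 in ESCs and at 506 and 500 in the epiblast, 8.03-fold lower (-3.01 ± 0.39, adjusted p = 0.00095). The ERK phosphatase gene Dusp4 was at 77.1 and 87.7 against 609 and 644, 7.61-fold lower. Spry1 and Spry4, feedback inhibitors of receptor tyrosine kinases, were 2.78-fold and 3.03-fold lower, and Egr1 lay mostly below the filter level in both groups. The ESC mean of Egr1 on the unamplified arrays was 158. Calls of the last 3 were less firm: Spry4 was lost in each of the 4 fits with 1 array fewer, Spry1 without ESC replicate 2 or epiblast replicate 1, and Egr1 without ESC replicate 2 or either epiblast array. The count was 2 without ESC replicate 2 or epiblast replicate 1 and 3 without epiblast replicate 2. Dusp6 was at 5.18 and 4.30 in ESCs and at 18.5 and 419 in the epiblast, so far apart between the epiblast arrays that it was not called (-4.22 ± 1.67). Of the ligands, Fgf15 was at 28.6 and 16.9 against 391 and 475, at least 17.9-fold lower in ESCs. Fgf8, a growth factor of the streak, was at 4.2 and 8.52 against 73.6 and 72.7, a call lost without ESC replicate 1. The carrier protein gene Fgfbp1 was higher in ESCs, 232 and 202 against 38.2 and 45.8, a call lost without ESC replicate 1 or epiblast replicate 1.

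WNT signalling is mimicked by the GSK3 inhibitor of 2i. Of 15 tested WNT targets 4 were called higher in ESCs and 0 lower, with a median of 0.04. Cdx1, a caudal homeobox gene, was at 190 and 195 in ESCs and at 9.98 and 11.8 in the epiblast, at least 8.01-fold higher. Notum, a secreted enzyme that inactivates WNT ligands, was at 633 and 647 against 116 and 140, 5.03-fold higher (2.33 ± 0.21, adjusted p = 0.00013). Axin2, a feedback scaffold, was at 701 and 393 against 124 and 94.1, and the zinc finger gene Sp5 at 876 and 678 against 18.9 and 38.0. Each fit with 1 array fewer ended the call of Sp5, and leaving out ESC replicate 1 or epiblast replicate 2, or taking the mean of its probe sets, that of Axin2, so that 2 genes of the list were called without either of those arrays. Other targets were not called: Lef1 was at 373 and 447 against 487 and 488, and Lgr5 at 22.6 and 35.1 against 26.9 and 40.7.

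The Nodal pathway patterns the embryo, and the Lefty proteins are its secreted antagonists and its targets. Of 14 tested genes 4 were called higher in ESCs and 1 lower, and these counts were the same without any 1 of the 4 arrays. Lefty2 was at 2802 and 3901 in ESCs and at 67.4 and 108 in the epiblast, 38.7-fold higher (5.27 ± 0.36, adjusted p = 3e-05). Lefty1 was at 1361 and 1672 against 114 and 50.2, 20.0-fold higher. The ligand gene Gdf3 had 2200 and 1982 against 461 and 385, and Pcsk6, a protease that matures Nodal, 498 and 617 against 153 and 193. Skil, a repressor of Smad proteins, was lower in ESCs, 541 and 366 against 2352 and 2675. The coreceptor gene Tdgf1 was at 4292 and 4504 against 4132 and 2873 (0.35 ± 0.60), and it and the transducers Smad2 and Smad3 were not called.

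BMP signals reach the epiblast from the extraembryonic ectoderm, and Id genes are their direct targets. Of 14 tested targets 3 were called lower and 3 higher in ESCs. Id1 was at 193 and 158 in ESCs and at 929 and 862 in the epiblast, 5.12-fold lower (-2.36 ± 0.27, adjusted p = 0.0004), and Id3 at 538 and 465 against 2119 and 2653. Hey1, a bHLH repressor also downstream of Notch, was 3.89-fold lower. In contrast Id4, at 483 and 477 against 24.5 and 28.8, was 18.1-fold higher in ESCs. Tbx3, at 590 and 464 against 36.5 and 27.9, was 16.4-fold higher, and Gata2, at 140 and 123 against 26 and 23.6, 5.31-fold higher. The members of the Id family were thus split between the groups. The call of Id3 was lost without either ESC array or epiblast replicate 2. Bmp4 itself, at 60.3 and 83.9 against 235 and 179, was 2.89-fold lower in ESCs, a call lost without ESC replicate 1 or epiblast replicate 1. Of 19 tested genes of the hedgehog and Notch pathways 3 were called lower: Hey1, the hedgehog transducer Smo (200 and 197 against 989 and 1173) and Gli3, which was lost without ESC replicate 1 or either epiblast array, as well as after averaging its probe sets. With the replicate block 4 genes of these pathways were called lower and 4 higher.

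Several genes of early germ cells belong to the naive network as well. Of 19 tested, 12 were called higher in ESCs and 2 lower, with a median of 2.21, and Prdm14, Tcl1, Dppa3 and Fgf4 are on both lists. Tcl1, a coactivator of Akt, was at 2598 and 2491 in ESCs and at 42.2 and 31.8 in the epiblast, 69.4-fold higher (6.12 ± 0.33, adjusted p = 1e-05). Prdm1 (Blimp1), the repressor that founds the germ line, was at 166 and 214 against 18.3 and 7.77, at least 7.83-fold higher. The receptor kinase gene Kit had 1042 and 1590 against 102 and 129, and Ifitm1, a membrane protein of migrating germ cells, 4637 and 4155 against 736 and 351. The call of Kit was lost with the mean of its probe sets. Tfap2c was at 758 and 757 against 143 and 164. In each of the 4 fits with 1 array fewer, Tfap2c and Rhox9, an X-linked homeobox gene near background in the epiblast, were not called, and the count of 12 became 9 without epiblast replicate 1 and 7 without each of the others. Lower in ESCs were Lin28a and, chosen after its values were seen, the X-linked homeobox gene Rhox5, at 568 and 389 against 1762 and 1458, a call lost in each of the 4 fits with 1 array fewer; that of Lin28a was lost without ESC replicate 2 or either epiblast array.

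Genes of later germ cells, known from meiosis and transposon silencing, were where called mostly on the epiblast's side. Of 26 tested, 6 were called lower in ESCs and 1 higher, with a median of -0.45. The synaptonemal complex gene Sycp3 was at 51.3 and 72.5 in ESCs and at 358 and 421 in the epiblast, 6.36-fold lower (-2.67 ± 0.38, adjusted p = 0.0015). Its ESC mean was 61.0 on the amplified arrays and 394 on the unamplified arrays. Mael, a piRNA pathway gene, was at 38.2 and 40.2 against 212 and 274, 6.15-fold lower. Slc25a31, the germ cell form of the mitochondrial ADP/ATP carrier, was at 5.90 and 7.23 against 159 and 122, at least 5.80-fold lower, and the kinase gene Stk31 at 27.8 and 39.8 against 118 and 103. These 4 kept their call without any 1 array. Tdrkh and Sycp1 lay below the filter level in the mean of both groups, Tdrkh was lost with low values raised to that level, and Sycp1 was lost in each of the 4 fits with 1 array fewer. Ddx4 (Vasa) was at 97.1 and 72.9 against 375 and 285, with no overlap but no call (-1.96 ± 0.63). The gene higher in ESCs was Hsf2bp, a meiotic recombination gene chosen after its values were seen, 2.45-fold, a call lost without ESC replicate 2 or either epiblast array.

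Among 23 tested imprinted genes 7 were called lower in ESCs and 3 higher, with a median of -0.61. Grb10, a growth-restraining adaptor, was at 87.3 and 95.5 in ESCs and at 930 and 1019 in the epiblast, 10.7-fold lower (-3.41 ± 0.36, adjusted p = 0.00026). Its ESC mean was 91.3 on the amplified arrays and 510 on the unamplified arrays. The growth factor gene Igf2 was at 22.8 and 22.2 against 240 and 187, at least 8.82-fold lower. Magel2 and Ndn, neighbours in the Prader-Willi region, had 38.9 and 20.7 against 158 and 278 and 136 and 180 against 841 and 830, and Cdkn1c, an inhibitor of the cell cycle, 44.0 and 49.7 against 266 and 229. Plagl1, a zinc finger regulator of an imprinted network, went in the other direction, with 3047 and 4741 against 40.1 and 28.6, 112-fold higher in ESCs. These folds are of 1 probe set per gene. Over the alternative ways of processing, the smallest size of the log2 difference was 2.47 for Plagl1 and 1.17 for Grb10. With the mean of all probe sets, 1 gene of the list was called higher and 6 lower. The call of Ndn was lost without ESC replicate 1. Imprinted transcripts did not share a direction: Peg3, Mest and Meg3 had differences of 0.58, -0.68 and 0.46 and were not called.

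On the X chromosome 60 of 505 tested genes (11.9%) were called lower in ESCs and 30 (5.94%) higher, with a median difference of -0.13, and its share of lower calls was the highest of the 20 chromosomes with tested genes counted. Of all genes called lower 7.43% lay on the X, which holds 3.24% of the genes tested. Xist, the RNA that silences an X, was at 14.2 and 24.6 in ESCs and at 97.9 and 63.3 in the epiblast, at least 3.27-fold lower in ESCs (-2.07 ± 0.36, adjusted p = 0.0043), a call lost without epiblast replicate 1 or with the mean of its probe sets. Its neighbour Ftx, chosen after its values were seen, was at 12.3 and 13.0 against 148 and 177. Of the Y-linked genes Eif2s3y was at 797 and 914 against 348 and 350 and Kdm5d at 19.5 and 12.2 against 89.0 and 33.4, and neither was called. With the replicate number as a block Kdm5d was called lower in ESCs (-1.82, adjusted p = 0.0063). The part of the sex of the samples in these values cannot be told apart from the groups.

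The epiblast is an epithelium with an apical lumen, and called genes of epithelial junctions and surfaces were mostly higher there. Of 23 tested genes of cell adhesion and polarity 7 were called lower in ESCs and 1 higher. The claudin gene Cldn6 was at 178 and 219 in ESCs and at 1907 and 2492 in the epiblast, 11-fold lower (-3.47 ± 0.35, adjusted p = 0.0002). Podxl, the gene of podocalyxin, which lines the lumen, was at 110 and 109 against 1130 and 1186, 10.6-fold lower. Esrp1, an epithelial splicing regulator, had 101 and 135 against 1115 and 1329, and Krt18, a keratin, 190 and 178 against 1737 and 1708. Cldn7 was 2.90-fold lower. Vim, the gene of the mesenchymal filament vimentin, was the exception with 3303 and 3829 in ESCs against 742 and 715, 4.88-fold higher. Calls of these 6 genes held without any 1 array. Cldn3, Crb3 and Krt8 had differences of 0.11, -0.01 and -0.03 and were not called.

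Genes of the matrix and its receptors were called in both directions. Of 26 tested integrin, laminin and basement membrane genes 6 were called higher and 3 lower in ESCs. Fibronectin (Fn1) was at 5873 and 7498 in ESCs and at 626 and 771 in the epiblast, 9.56-fold higher (3.26 ± 0.30, adjusted p = 0.00012). Nid1, the basement membrane linker nidogen, had 1152 and 1128 against 153 and 82.9, and Sparc, a collagen-binding glycoprotein, 4918 and 4233 against 932 and 570. Lamb2, a laminin chain, was 6.30-fold higher. Genes of collagen IV were lower in ESCs: Col4a1 was at 34.9 and 54.6 against 486 and 298, 8.71-fold lower in ESCs, and Col4a2 at 34.8 and 42.2 against 320 and 197, a call lost without ESC replicate 1 or epiblast replicate 1. Of the integrins, named after their values were seen, Itgav was higher in ESCs (420 and 572 against 148 and 136) and Itga3 lower (66.9 and 57.9 against 438 and 224), and the laminin gene Lamc1 was 2.26-fold higher. All 3 calls were lost with the mean of probe sets, that of Itga3 also in each fit with 1 array fewer and that of Lamc1 without replicate 2 of either group.

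Glycolysis did not shift as a list. Of 22 tested genes 3 were called higher in ESCs and 3 lower, with a median of -0.24, and members of the same step lay on different sides. Pfkfb3, an enzyme that makes the activator of phosphofructokinase, was at 4.2 and 12.3 in ESCs and at 353 and 310 in the epiblast, at least 13.8-fold lower. The glucose transporter gene Slc2a3 was at 8694 and 9737 against 3231 and 2806, 3.06-fold higher in ESCs (1.61 ± 0.20, adjusted p = 0.00064). Of the phosphofructokinase isoforms, Pfkp was at 2258 and 2842 against 310 and 420 and Pfkl at 1179 and 839 against 3660 and 2954, and both calls, unlike those of Pfkfb3 and Slc2a3, were lost in each of the 4 fits with 1 array fewer. The hexokinase gene Hk1 was 3.05-fold higher, lost without either ESC array or epiblast replicate 2. Without any 1 array the list had 1 or 2 genes called in each direction. Of 32 tested genes of the respiratory chain 0 were called with limma (2 with an unadjusted p under 0.05), and the median was 0.26. With the replicate block 1 was called, Cox7a1 (2.33, adjusted p = 0.017). Of 18 tested hypoxia genes 1 was called higher in ESCs and 2 lower. Epas1 was higher, 1180 and 1078 against 247 and 125. Egln3, an oxygen-sensing hydroxylase, was lower, 96.3 and 93.4 against 351 and 352, a call lost with the mean of its probe sets. Ankrd37 was also lower, 75.8 and 62.9 against 240 and 202, a call lost in each of the 4 fits with 1 array fewer.

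Called genes of redox defence and of amino acid synthesis lay mostly on the ESC side. Of 20 tested glutathione and oxidative stress genes 5 were called higher and 1 lower (median 0.80). Nqo1, a quinone reductase and a target of Nrf2, was at 1244 and 1098 in ESCs and at 75.1 and 74.5 in the epiblast, 15.6-fold higher (3.97 ± 0.24, adjusted p = 1.6e-05). The glutathione peroxidase gene Gpx2 was at 1107 and 976 against 98.4 and 33.3, a call lost without either ESC array or epiblast replicate 2. Sod2, the mitochondrial superoxide dismutase, was 3.42-fold higher, and Mgst1, a microsomal glutathione transferase, at 39.1 and 42.4 against 217 and 207, was lower. Gclm and Gclc, further Nrf2 targets, had differences of -1.04 and -0.90 and were not called. With the replicate block 7 genes of this list were called higher and 2 lower, Gclm among the latter (adjusted p = 0.039). Of 16 tested genes of serine, glycine and one-carbon metabolism 4 were called higher and 0 lower: Asns, Bcat1 (2436 and 3925 against 672 and 667), Aldh18a1 and Psph, of which Psph was lost without any 1 of the 4 arrays and Aldh18a1 without either ESC array or epiblast replicate 2.

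Asns, which makes asparagine, is also a target of Atf4, the factor of the integrated stress response. Of 20 tested genes of that response, out of 21 listed, 10 were called higher in ESCs and 0 lower, with a median of 1.24. Nupr1, a small chromatin protein induced by stress, was at 3834 and 3052 in ESCs and at 12.3 and 9.09 in the epiblast, at least 142-fold higher (8.34 ± 0.38, adjusted p = 4.9e-06). Asns was at 7920 and 10343 against 1143 and 1261, 7.54-fold higher. Chac1, an enzyme that degrades glutathione, had 349 and 350 against 45.4 and 62.1. Trib3, a pseudokinase that inhibits Akt, was 6.81-fold higher, Ddit3 (Chop) 7.04-fold and Atf3, at 85.1 and 124 against 7.11 and 12.5, at least 4.27-fold. Calls of these 6 genes held without any 1 array. The count of the list was 7 without ESC replicate 1 or epiblast replicate 1 and 6 without either of the others. Atf4 itself, which is regulated by translation, was at 4335 and 5394 against 2214 and 2986 (0.91 ± 0.38) and was not called, nor were the endoplasmic reticulum chaperone gene Hspa5 (-0.28 ± 0.35) and Ddit4 (0.57 ± 0.92).

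The Atf4 response element reads TGATGNAA. It was searched on either strand in the 250 bases before each annotated start, and a match at any start of a gene counted. It was found in 8 of 19 matched genes of this list and in 2.71% of all 12489 tested genes with a promoter sequence. The list had been written from known Atf4 targets and the motif was chosen after the values were seen, so this describes the list. The promoters below are those of the 5 called genes that hold it, shown because Nupr1, Asns, Chac1 and Atf3 are among the strongest differences of the list. Herpud1, a gene of protein degradation at the endoplasmic reticulum that was chosen for its motif, was at 568 and 461 against 247 and 182, a call lost in each of the 4 fits with 1 array fewer. Sequences are from RefSeq on build GRCm38.p6, 5′ to 3′ on the strand of the gene, with the motif or its reverse complement in capitals.
Nupr1 (chr7:126625471-126625720, minus strand): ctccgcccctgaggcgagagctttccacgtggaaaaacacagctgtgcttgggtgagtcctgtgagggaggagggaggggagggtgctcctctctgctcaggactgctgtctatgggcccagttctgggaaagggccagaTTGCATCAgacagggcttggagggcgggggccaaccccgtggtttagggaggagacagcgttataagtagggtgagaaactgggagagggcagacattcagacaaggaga
Asns (chr6:7693210-7693459, minus strand): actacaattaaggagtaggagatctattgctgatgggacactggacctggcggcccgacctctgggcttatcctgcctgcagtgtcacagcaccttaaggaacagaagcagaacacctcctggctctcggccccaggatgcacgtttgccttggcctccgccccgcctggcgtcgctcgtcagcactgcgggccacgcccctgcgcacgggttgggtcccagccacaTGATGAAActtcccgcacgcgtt
Chac1 (chr2:119350992-119351241, plus strand): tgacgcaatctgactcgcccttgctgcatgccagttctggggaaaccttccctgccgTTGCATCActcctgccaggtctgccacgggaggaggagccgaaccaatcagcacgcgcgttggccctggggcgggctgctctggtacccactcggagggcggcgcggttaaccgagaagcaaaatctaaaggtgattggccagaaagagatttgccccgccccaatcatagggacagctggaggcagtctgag
Atf3 (chr1:191183334-191183583, minus strand): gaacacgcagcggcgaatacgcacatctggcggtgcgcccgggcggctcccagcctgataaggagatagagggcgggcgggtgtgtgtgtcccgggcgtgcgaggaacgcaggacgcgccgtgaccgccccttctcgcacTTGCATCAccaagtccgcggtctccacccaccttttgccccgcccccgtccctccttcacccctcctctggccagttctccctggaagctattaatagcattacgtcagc
Herpud1 (chr8:94386179-94386428, plus strand): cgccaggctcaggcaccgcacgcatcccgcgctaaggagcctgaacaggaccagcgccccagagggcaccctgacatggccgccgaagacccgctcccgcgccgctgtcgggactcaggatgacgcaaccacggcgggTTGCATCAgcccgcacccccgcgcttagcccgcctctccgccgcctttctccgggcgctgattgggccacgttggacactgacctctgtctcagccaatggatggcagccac
Counted from the annotated start, the first base of the motif lies at -110 in Nupr1, -23 in Asns, -193 in Chac1, -110 in Atf3 and -112 in Herpud1. Fgf21, Slc7a11 and Vldlr also hold the letters, and they had differences of 1.16, 1.28 and 0.39 and were not called.

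Values of some of these genes in the other cultured pluripotent cells are given side by side, since the comparisons share arrays. Nupr1 was at 1087 and 2000 in day 2 EpiLCs and at 629 and 330 in epiblast stem cells (EpiSCs), a line derived from the epiblast, which places every cultured array above both epiblast arrays. Chac1 was at 1685 and 1466 in EpiLCs, above the ESC values, and at 367 and 176 in EpiSCs. Asns was at 3455 and 5010 in EpiLCs and at 4412 and 3375 in EpiSCs. Nqo1 was at 1091 and 1306 in EpiLCs and at 169 and 132 in EpiSCs. Lefty1 was at 2448 and 5430 in EpiLCs and at 7528 and 11871 in EpiSCs, above the 1361 and 1672 of ESCs. The epiblast thus had the lowest arrays of the 4 pluripotent groups for each of these 5 genes. This did not hold for Trib3, at 301 and 95.3 in EpiSCs against 133 and 97.6 in the epiblast. Nor did it hold for Gpx2, at 54.3 and 12.4 in EpiSCs against 98.4 and 33.3. Between ESCs and EpiLCs, Nqo1 differed by -0.03 with an adjusted p of 0.97 and Nupr1 by 1.21 with an adjusted p of 0.086, which does not show that they are equal. Of the naive genes, Tfcp2l1 had a mean of 25.6 in EpiLCs and Klf4 of 5.88.

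**Figure D3:**
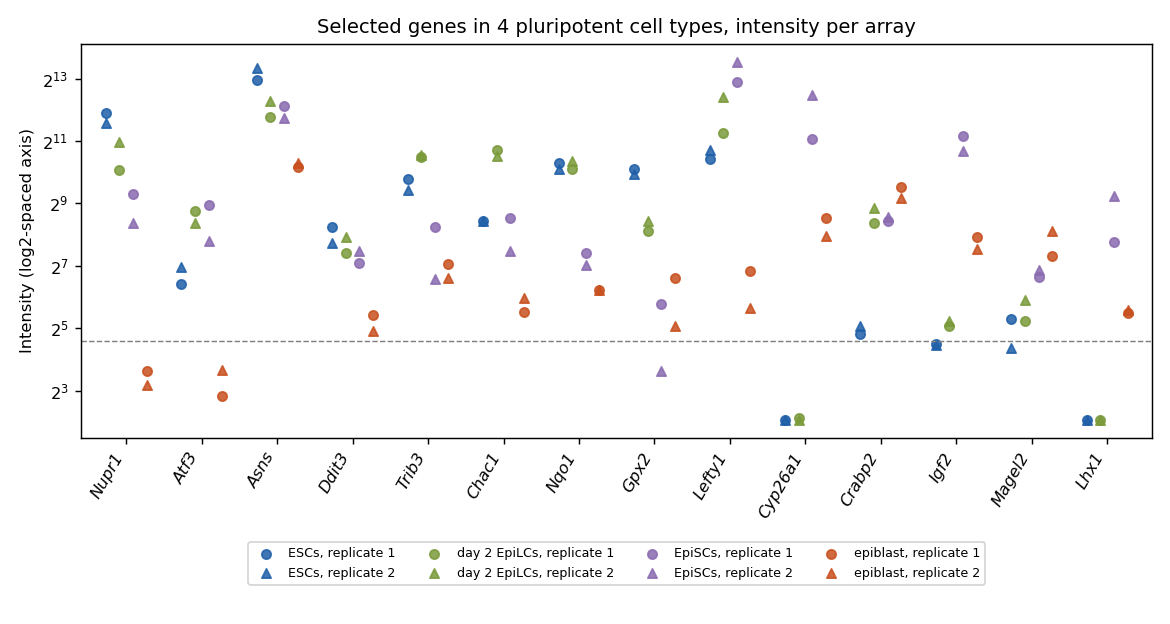
Intensity of 14 genes on the 2 arrays each of ESCs, day 2 EpiLCs, EpiSCs and epiblast, on a log2-spaced axis, with the filter level of 24 as a dashed line. Nupr1, Atf3, Asns, Ddit3, Chac1, Nqo1 and Lefty1 are lowest on the epiblast arrays, whereas Cyp26a1 and Lhx1 lie at or just above the floor on the ESC and EpiLC arrays. Trib3 and Gpx2 each have an EpiSC array below both epiblast arrays.

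Retinoic acid guides the later embryo, and most called genes of its metabolism were higher in the epiblast. Of 16 tested, 5 were called lower in ESCs and 1 higher. Cyp26a1, which degrades retinoic acid, was at the floor on both ESC arrays and at 373 and 247 in the epiblast, at least 12.6-fold lower in ESCs (-6.18 ± 0.59, adjusted p = 0.00016). Day 2 EpiLCs had 4.35 and 4.2 and EpiSCs 2124 and 5735, so that this transcript was at background on the ESC and EpiLC arrays and well above it on the EpiSC and epiblast arrays. Crabp2, a carrier protein, was at 28.3 and 33.6 against 745 and 584, 21.4-fold lower. Aldh1a2, which makes retinoic acid, was higher in ESCs, 204 and 161 against 11.1 and 12.9. The other 3 calls were less firm: Aldh1a3 was lost without any 1 of the 4 arrays, Rarg without either ESC array or epiblast replicate 1, and Rdh10 without ESC replicate 1 or epiblast replicate 1.

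Primitive streak genes mark cells about to leave the epiblast. Of 18 tested, 6 were called lower in ESCs and 2 higher, the WNT targets Sp5 and Cdx1, with a median of -0.80, or -0.29 with low values raised to the filter level. Eomes, a T-box gene of the proximal epiblast and of trophoblast, was at 164 and 154 in ESCs and at 588 and 1006 in the epiblast, 4.83-fold lower (-2.27 ± 0.42, adjusted p = 0.0056). Lhx1, a gene of the anterior endoderm and streak, was at the floor against 44.5 and 47.7, and Mixl1 at 12.8 and 7.92 against 31.2 and 76.1. The epiblast means of Lhx1 and Mixl1 were low, at 1.92 and 2.03 times the filter level. Eomes was lost without epiblast replicate 2, Mixl1 without that array or ESC replicate 2, and Lhx1 and Mixl1 with low values raised to the filter level, which left 3 lower calls. Mixl1 was also lost in the fit on the 4 arrays alone. The count of 6 became 3 without either ESC array or epiblast replicate 2 and 4 without epiblast replicate 1. The summed intensity of the 5 defining streak markers was 239 and 217 in ESCs and 750 and 1235 in the epiblast, 4 of the 5 being called.

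Markers of the visceral endoderm, the nutritive layer that surrounds the epiblast, were among the genes lower in ESCs. Of 20 tested, out of 23 listed, 8 were called lower in ESCs and 2 higher, with a median of -1.23, or -0.85 with low values raised to the filter level. The apolipoprotein gene Apoa1 was at the floor in ESCs and at 612 and 93.8 in the epiblast, at least 9.97-fold lower in ESCs (-5.84 ± 0.70, adjusted p = 0.00057). Cubn and Amn, which together form a receptor of endocytosis, were at 10.3 and 19.7 against 640 and 199 and at 22.9 and 28.2 against 592 and 148. Dab2, an adaptor of that receptor, was at 19.4 and 31.5 against 425 and 323. The secreted inhibitor gene Spink1 had 6.55 and 14.4 against 1050 and 50.4, and the thyroid hormone carrier gene Ttr 25.1 and 27.8 against 558 and 71.4. Epiblast replicate 1 was higher than replicate 2 for all 6 of these genes, and ESC arrays lay near or below the filter level. Without epiblast replicate 1 the log2 difference of Spink1 was -2.37 and the log2 difference of Ttr was -1.43. Spink1 was lost without either ESC array or epiblast replicate 1, and Ttr without either ESC array. The count of 8 became 4 without either ESC array, 5 without epiblast replicate 1 and 8 without epiblast replicate 2.

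**Figure D4:**
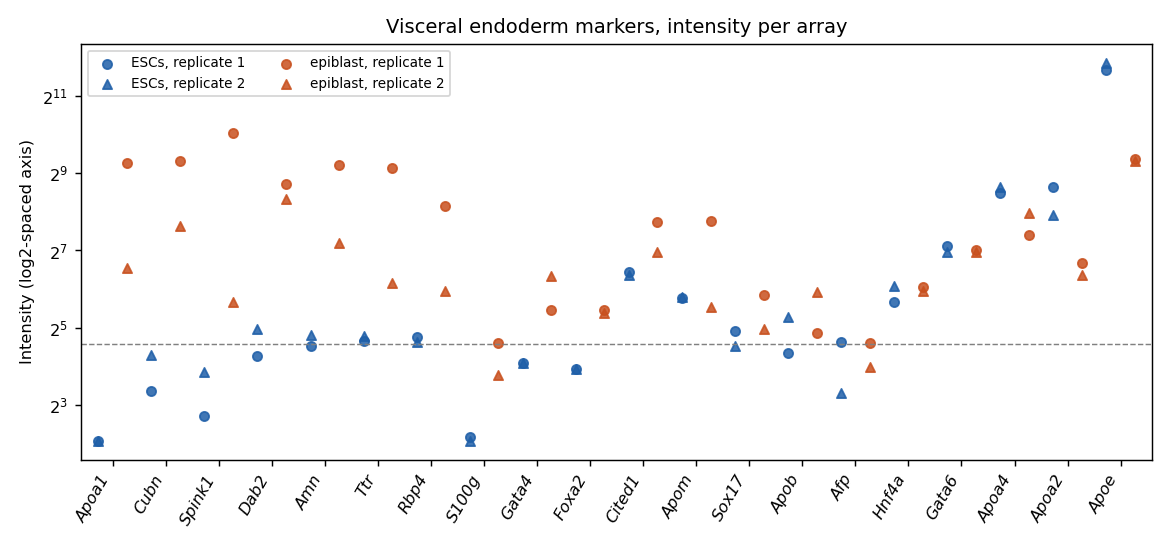
Intensity of 20 visceral endoderm markers on each of the 2 ESC and 2 epiblast arrays, on a log2-spaced axis, ordered by difference, with the filter level of 24 as a dashed line. The leading markers stand out on both epiblast arrays, and Apoa1, Spink1, Amn, Ttr and Rbp4 are higher on epiblast replicate 1.

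Not all markers of that layer followed. Afp was at 24.9 and 9.98 in ESCs against 24.4 and 15.8, Hnf4a at 50.4 and 67.6 against 66.1 and 62.2 and Gata6 at 140 and 124 against 128 and 125, each with overlapping arrays. The 2 called higher in ESCs, chosen after their values were seen, were Apoe, at 3263 and 3723 against 657 and 644, and Apoa2, which was lost without ESC replicate 1 or either epiblast array. The 9 defining markers summed to 324 and 321 in ESCs and to 2724 and 827 in the epiblast, and 4 of the 9 were called. In such bulk samples fewer cells of a type and less RNA per cell cannot be told apart, and the part of neighbouring cells in the other lists was not tested.

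Markers of other cells were called in both directions. The 7 defining fibroblast markers summed to 147 and 93.4 in ESCs and 305 and 276 in the epiblast, with 2 called lower in ESCs, Dcn (at the floor against 79.1 and 72.5) and Thy1, which was lost without ESC replicate 2 or epiblast replicate 1, while Postn was at or near the floor on all 4 arrays. The 4 blood markers summed to 210 and 200 against 125 and 138, the 3 endothelial markers to 293 and 195 against 178 and 124 and the 3 tested decidual markers to 255 and 194 against 261 and 233. On the longer list of 14 tested blood and endothelial genes, the adhesion gene Pecam1, which is also on the naive list, was higher in ESCs (166 and 310 against the floor), as was the globin gene Hbb-y (86.2 and 76.6 against 38.6 and 32.8), a call lost in each fit with 1 array fewer. Cd34 was lower (4.2 and 4.93 against 41.2 and 48.0), a call lost with low values raised to the filter level. Of the trophoblast markers Cdx2 and Plac1 were below the filter level on all 4 arrays, Krt7 differed by -0.99 without a call, and Hand1 was at 13507 to 14165 on all 4. The Hand1 signal was at 12925 to 15298 on all 12 amplified arrays, near the largest value deposited, 17519. It therefore did not tell cell types apart here. On the longer trophoblast list 2 of 15 tested genes were called lower, Eomes and Bmp4, and 2 higher, Rhox9 and Tfap2c, and these 4 calls were each lost without at least 1 array, as given with these genes above. Of 11 parietal endoderm markers 2 were called lower in ESCs, Col4a1 and the parathyroid hormone receptor gene Pth1r (at the floor against 117 and 59.8), and 2 higher, Sparc and Plat, the latter lost in each fit with 1 array fewer. Each group also carried its own markers: 6 of 6 ESC markers were higher in ESCs and 6 of 6 epiblast markers lower.

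Set side by side, the lists differed in how evenly their members moved. Naive genes lay entirely on the ESC side, from 1.72 to 7.88, and LIF and Atf4 genes mostly so, whereas WNT, BMP and imprinted genes had called members at both ends or a few far from the median. Of 25 tested genes of repressive histone methylation 2 were called, both lower in ESCs, where 5.18% of all genes were called lower. Chosen after their values were seen, they were Cbx2, at 359 and 373 against 958 and 931, and Ehmt1, at 450 and 613 against 1052 and 1354. Each was lost in each of the 4 fits with 1 array fewer. With the replicate block 2 genes of this list, Mtf2 and Suz12, were called higher in addition (adjusted p = 0.0302 and 0.037). Among 15 cholesterol synthesis genes (median 0.64), 11 decidual genes (median -0.12) and 10 ribosomal paralogues (median 0.01), 0 were called with limma, and 4, 0 and 0 of them had an unadjusted p under 0.05. The replicate block called 1 cholesterol gene, Insig1 (1.07, adjusted p = 0.043), and the fit on the 4 arrays alone 1 decidual gene. Of 20 tested p53 and cell cycle genes 4 were called higher in ESCs and 2 lower. The cell cycle inhibitor gene Cdkn1a (p21) was higher in ESCs, 1845 and 1022 against 174 and 83.7, a call lost without ESC replicate 1 or epiblast replicate 2. Mybl2, a cell cycle transcription factor, was at 2271 and 2690 against 534 and 532. The 2 lower were Cdkn1c, given above, and Ccne1, at 923 and 1250 against 2361 and 2767. Loss of ESC replicate 1 or epiblast replicate 2 ended the call of Ccne1.

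**Figure D5:**
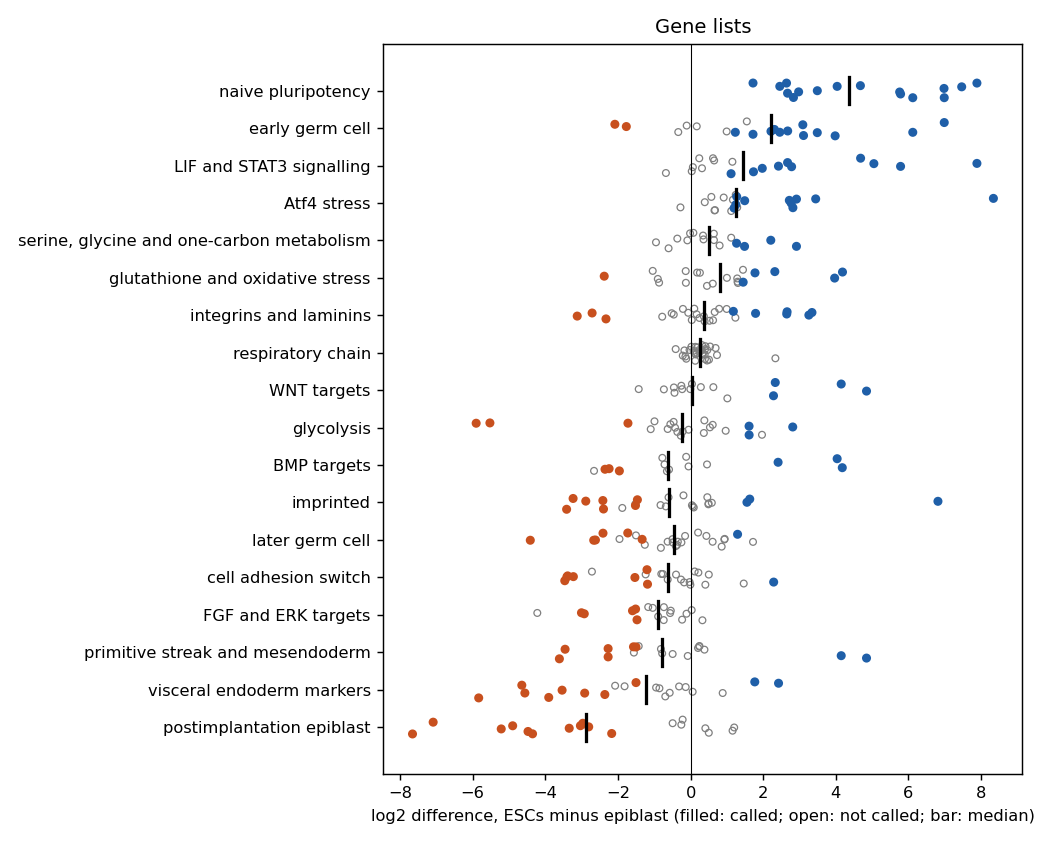
Log2 difference of ESCs minus epiblast for each tested gene of 18 lists, with filled points for called genes, open points for others and a bar at the median of the list. The naive list has its median at 4.36 and the postimplantation list at -2.89, and most other medians lie within 1 of the 0.01 of all genes.

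Promoters of the called genes differed in base composition. Over 250 bases before the start in RefSeq, the median number of CpG sites was 14 for all 12489 tested genes with a sequence, 12.5 for the 821 higher in ESCs and 16 for the 630 lower. Genes with fewer than 5 CpG sites made up 17.8% of all, 18% of those higher and 10% of those lower in ESCs. These shares are descriptions without a test. A gene with several starts entered once, with the mean CpG count over its promoters.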

How the data were processed

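Gene expression was read on Affymetrix Mouse 430 2.0 arrays. Values are the deposited intensity of each probe set on a linear scale, and the authors' software, background correction and normalization were not given in the sources used here. Of 45101 probe sets, 34945 had 1 gene symbol, 932 several, 9211 were not listed and 64 were controls. For each of 18193 genes the probe set with the highest mean log2 value over all 24 arrays was taken. Values were floored at 4.2, and 15608 genes with at least 2 of 12 amplified arrays above 24 were tested. limma 3.58.1 in R 4.3.3 was fitted to log2 values of the 12 amplified arrays with 1 mean per group and an intensity trend, and p-values were adjusted by Benjamini-Hochberg over all tested genes. Named genes were the 12 largest called differences in each direction without overlap of arrays (provisional names passed over), the 6 strongest called genes (or fewer) of any list that had 3 or more, and a fixed set of pluripotency and epiblast genes with Xist. Other genes, among them those not called, were chosen after their values were seen. Members and lists were chosen with earlier results of these data known. Replicate number coincides with the code in the array name. Same-numbered arrays deviated together in 15 of 15 pairs of groups (median r = 0.37, 0.48 for ESCs and epiblast), so the number was tried as a block. Simulated data with known changes were used to test the fit: 44% of 50 genes changed by 1.5 on the log2 scale were recovered, and 88% of 50 changed by 3. There 10 unchanged genes were called. The simulated noise was independent between arrays, without the shared deviation of same-numbered arrays, so these figures need not hold for the real arrays. Alternatives were other scalings, floors and filters, the mean of all probe sets, other sets of arrays, and leaving out each array.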

Additional observations from a re-analysis of the deposited data

How the results depend on the processing

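Leaving out 1 of the 4 arrays lowered the count of called genes from 1844 to between 1035 and 1083, with 590 to 670 higher and 398 to 493 lower in ESCs. A fit with a replicate block called 2385 genes (1331 higher, 1054 lower), all 1844 among them. Fitted on the 4 arrays alone, 2120 were called, and without the EpiSC arrays 2212. Centring gave 1880 (1081 higher), quantile normalization 1870 (988 higher), a floor at the 40th percentile 1637, no filter 1712, the mean of all probe sets 1665 and no trend 1840. The root mean square difference between ESC and epiblast arrays was 0.944 with the floor at the 40th percentile, 1.08 without the filter and 1.04 with the mean of probe sets; these alternatives compress low values, add low genes or average probe sets by construction. The difference of Pou5f1, not called, changed sign to 0.054 with quantile normalization and ranged from -0.28 to 0.24 when 1 array was left out (0.06 without ESC replicate 1, 0.24 without epiblast replicate 2), and the cause was not tested. Besides losses given with the genes, calls of Fgf4, Hsf2bp, Pfkp, Spry4, Zfp281, Cbx2, Herpud1 and Rarg were lost with the mean of probe sets. Hbb-y and Plat were lost that way too. Those of Gbx2, Aldh1a3, Rarg, Rhox9, Spink1, Sycp1 and Egr1 were lost with the floor at the 40th percentile. Among calls lost without the filter were those of Gpx2, Hk1, Pfkp, Plat, Slc16a3, Sp5, Spink1, Spry4 and Ttr. Besides Mixl1, the fit on the 4 arrays alone ended those of Aldh1a3, Egr1, Hk1, Rarg, Spink1, Thy1 and Ttr. Of 152 named called genes 98 kept their call under all 13 alternatives, 54 lost it under at least 1, and 0 reversed. A kept call can still shrink in size: the smallest log2 difference of Nid1, for instance, was 1.11. Genes near the filter level have differences limited by the floor, and 2 arrays per group limit all values.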
